A study of Mus musculus with 24 samples.

Results

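Collagen genes were followed across the thymus of mice lacking p27, stathmin or both. The members were all gene probes of the array whose gene name reads Col, a number, a and a number. They made up 78 probes of 41174 gene probes, spotted 96 times on each array, and 40 genes of the 28786 gene names. A filter on dim probes, which asked that Cy5 stand well above background on 6 or more arrays of the 24, kept 64 of the 78 probes and a probe for each of the 40 genes, against 35185 of all probes and 24784 of all genes. Where a gene had several probes that passed, its brightest one was used. The thymus signal was well above background on all 24 arrays for 26 of the 40 collagens, and was thinnest for Col4a3, on 10 arrays, and Col28a1, on 13.

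Every array carried thymus RNA of a C57BL/6 mouse 15 weeks old in the red Cy5 channel. The green Cy3 channel carried 1 pool of fibroblast RNA from all genotypes. The groups were wild type, p27 knockout (gene Cdkn1b), stathmin knockout (gene Stmn1) and the double knockout, with 6 mice each (3 of either sex, with no key to single mice). The dyes were not swapped, so a dye effect on a probe cannot be told apart from a difference between thymus and pool. Whether such an effect was equal on arrays of unlike brightness was not tested. The labels do not say how the alleles were made. Values below are log2 ratios of thymus over fibroblast pool, and a value of -5 means a much dimmer Cy5 than Cy3 signal.

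Collagens are triple-helical proteins of the extracellular matrix, each built from alpha chains. Fibrillar collagens give connective tissue its strength, collagen IV forms the mesh of basement membranes, and smaller classes decorate fibrils, anchor epithelia or span the cell membrane. In the thymus, fibroblasts of the capsule and septa and the cells of vessel walls are known collagen makers, while the thymocytes that fill the organ make little.

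The arrays differed in brightness, and the p27 knockout held the dimmest. In units of 1000 intensity units, the 99th percentile of the Cy5 signal ran from 56.3 to 286 in wild type, 19.4 to 171 in p27 knockout, 131 to 340 in stathmin knockout and 200 to 320 in double knockout, a span of 17.5-fold. Replicate 6 of the p27 knockout was the dimmest array. On it the 10 markers of double-positive thymocytes had a median log2 ratio of 0.28, with 5 of the 10 well above background, against 5.05 to 7.45 and 10 of 10 on each of the other 23 arrays. On replicate 5 of the p27 knockout, the next dimmest array, that median was 7.45, but Cd4, a co-receptor of these cells, stood at -0.22 against 3.00 to 5.32 on the 22 arrays other than these 2. All results on collagens were therefore also computed without p27 knockout replicates 5 and 6. The targeted genes followed the labels in part. The Cdkn1b ratio ran from -1.41 to 0.98 in the arrays of mice lacking p27 and from 1.21 to 2.30 in the others. The Stmn1 ratio of the brightest probe ran from 1.22 to 2.87 where stathmin was deleted and from 3.22 to 3.87 in wild type, while p27 knockout replicate 6 read -0.76. The second Stmn1 probe ran from -3.80 to -1.87 where stathmin was deleted. Which stretch of either gene was deleted is not stated, so a probe outside it would check nothing.

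Most collagens gave a lower signal from thymus than from the fibroblast pool. The mean log2 ratio was below 0 for 34 of the 40 collagens in wild type, 30 in p27 knockout, 34 in stathmin knockout and 34 in double knockout, where 44.9%, 41.1%, 45.2% and 47.2% of all genes were below 0. The median over the 40 collagens on an array was -2.44 ± 0.48 (SD, n = 6) in wild type, -1.54 ± 0.77 in p27 knockout, -2.58 ± 0.53 in stathmin knockout and -2.55 ± 0.25 in double knockout. The p27 knockout thus held the highest collagen ratios and the widest spread, from -2.47 to -0.38. Because these are whole organs, fewer collagen-making cells and less collagen RNA per cell cannot be told apart.

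The comparison in which collagen genes passed the test was double knockout against p27 knockout, which asks what loss of stathmin adds when p27 is already missing. In limma's fit over all 24784 genes with Benjamini-Hochberg adjustment at 0.05, 21 of the 40 collagens passed, 20 lower and 1 higher in double knockout. Of all genes tested 28.8% passed, 19.1% lower and 9.7% higher. The median collagen change was -0.99, with 34 of 40 below 0, against a median of -0.16 over all genes. The p27 knockout and double knockout ranges did not overlap for 6 collagens, all lower in double knockout, where the background share of genes without overlap was 7.86% lower and 4.08% higher. Those 6 were Col7a1, Col8a1, Col10a1, Col12a1, Col24a1 and Col25a1. Cy5 stood well above background on 19 arrays for Col10a1, 20 for Col24a1 and 21 for Col25a1, and on all 24 for Col7a1, Col8a1 and Col12a1. Among the 6 double knockout arrays it did so on 3 for Col10a1, 4 for Col24a1 and 6 for Col25a1. Without p27 knockout replicates 5 and 6, 4 collagens passed, all lower, beside 14.3% of all genes, 10.4% lower and 3.97% higher, and the median collagen change was -0.52 against -0.13 for all genes. They were Col4a4, Col7a1, Col24a1 and Col25a1, and all 4 had passed with the 24 arrays too. Each of the 6 slides held 1 array of each genotype, and the collagen median was lower in double knockout on 6 of 6 slides, by differences of -2.23 to -0.28. Genotype and array position on the slide cannot be told apart.

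**Figure D1:**
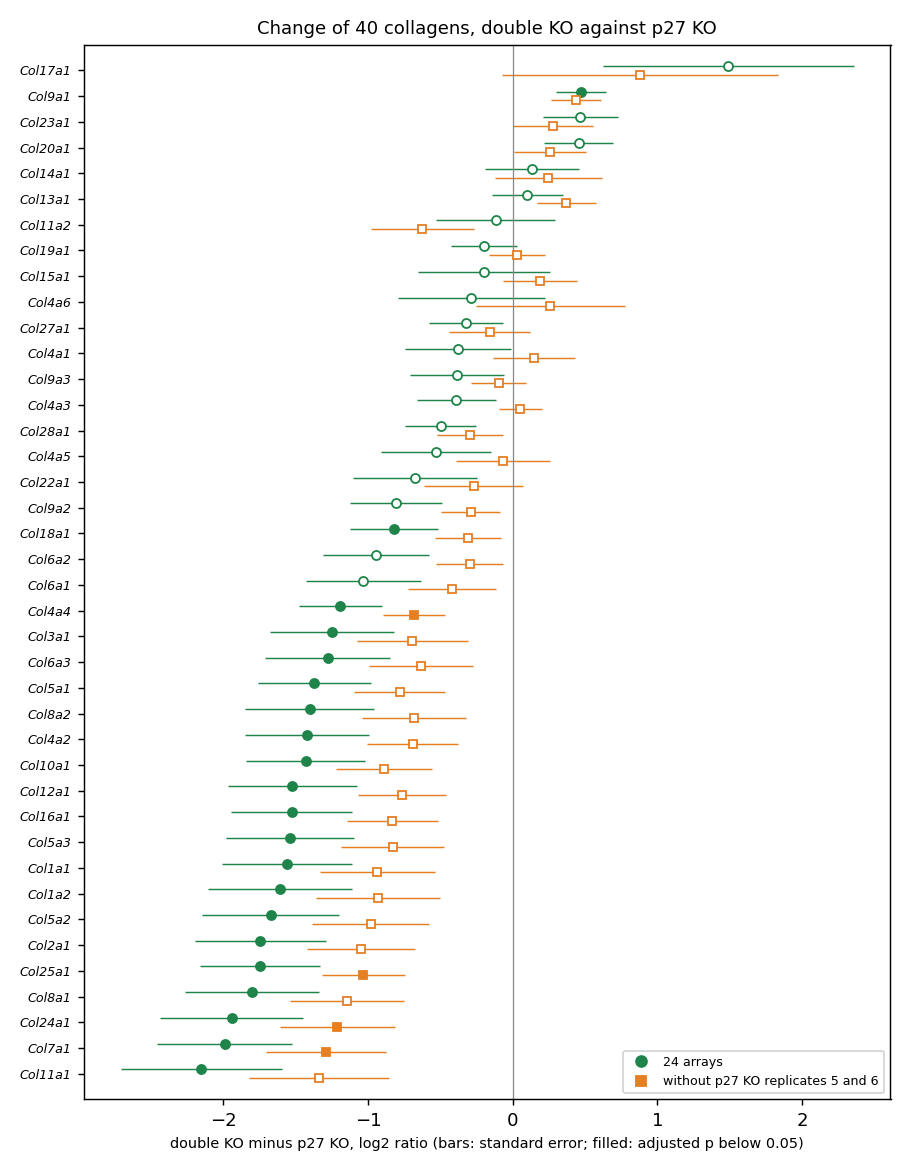
Change of each of the 40 collagens, double knockout minus p27 knockout, in log2 ratio with its standard error; circles use all 24 arrays, squares leave out p27 knockout replicates 5 and 6, and filled symbols mark an adjusted p below 0.05. With all arrays 20 collagens are filled below 0 and 1 above it, and without those 2 arrays 4 are filled, all below 0.

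Among the fibrillar collagens, 9 of 11 passed as lower in double knockout, where 19.1% of all genes did, with a median change of -1.56. Without p27 knockout replicates 5 and 6, only Col24a1 of these chains passed, where 10.4% of all genes passed as lower. Col1a1, the major chain of type I collagen (GRCm38.p6, chr11:94936224-94953042), read -5.89, -5.38 and -3.78 in wild type as lowest, median and highest of 6 arrays. It read -5.37, -3.90 and -1.84 in p27 knockout, -6.05, -5.42 and -4.39 in stathmin knockout, and -6.24, -5.20 and -5.12 in double knockout. Double knockout values lay at or below the low end of the p27 knockout values and overlapped them there, and the highest p27 knockout value belonged to the dim replicate 6. The change from p27 knockout to double knockout was -1.56 ± 0.45 (SE), 2.95-fold lower, with an adjusted p of 0.0163. Its 3 probes gave -1.79, -1.56 and -1.70. The Cy3 spot of the probe used was saturated on 21 of the 24 arrays, so its ratios carry a bound on the fibroblast side. Without p27 knockout replicates 5 and 6 the Col1a1 change was -0.93 ± 0.39, with an adjusted p of 0.102.

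Col1a2, which supplies the second chain of type I collagen, read -3.09, -1.22 and 1.09 in p27 knockout and -3.76, -2.85 and -2.13 in double knockout. Wild type read -3.27, -2.93 and -1.10, and stathmin knockout -3.35, -3.06 and -2.17. The change was -1.61 ± 0.50, adjusted p 0.0217, and the groups overlapped. The Cy3 spot was saturated on 2 p27 knockout and 2 wild type arrays and on no double knockout array, so the size of this change is uncertain on the fibroblast side. Col3a1, the type III chain of soft connective tissue, read -3.50, -1.98 and -0.08 in p27 knockout and -4.14, -3.19 and -2.67 in double knockout, and changed by -1.25 ± 0.43, adjusted p 0.0337. In wild type and stathmin knockout its medians, -3.18 and -3.52, were close to that of double knockout.

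The 3 type V chains and Col11a1 of type XI, of families that lie in the core of fibrils and set their width, were also lower. Col5a1 read -4.91, -3.81 and -1.70 in p27 knockout and -5.54, -4.99 and -4.79 in double knockout, a change of -1.37 ± 0.39 with an adjusted p of 0.0154. Col5a2, which lies 24624 bases from Col3a1 on chromosome 1, read -5.06, -3.55 and -1.33 against -5.79, -5.22 and -4.85, a change of -1.67 ± 0.47 with an adjusted p of 0.0146. Both overlapped between the groups. Col5a3 read -3.84, -2.76 and -0.34 against -4.55, -3.93 and -3.59, with an adjusted p of 0.0157. Col11a1, a cartilage and bone fibril chain, had the largest change of any collagen, -2.15 ± 0.56, a 4.44-fold lower ratio, adjusted p 0.00987. It read -5.00, -3.40 and -0.81 in p27 knockout and -6.07, -5.58 and -4.86 in double knockout. The groups overlapped only at their edge, where the highest double knockout array lay above the lowest p27 knockout array.

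Cartilage type II collagen, Col2a1, read -3.42, -1.99 and 0.34 in p27 knockout and -4.25, -3.47 and -3.21 in double knockout, a change of -1.74 ± 0.45 with an adjusted p of 0.00993. Col24a1, a minor fibrillar chain, read -3.98, -3.24 and -0.32 against -5.16, -4.74 and -4.38 with no overlap, and changed by -1.94 ± 0.49, adjusted p 0.009. It still passed without p27 knockout replicates 5 and 6, at -1.21 ± 0.39 and an adjusted p of 0.0463. Its thymus signal was dim, with Cy5 well above background on 4 of the 6 double knockout arrays, so its ratios there rest partly on signal near background. The raw Cy5 median of Col24a1 was 235 intensity units in p27 knockout and 271 in double knockout. Col11a2 and Col27a1 did not pass and had changes of -0.12 and -0.32.

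**Figure D2:**
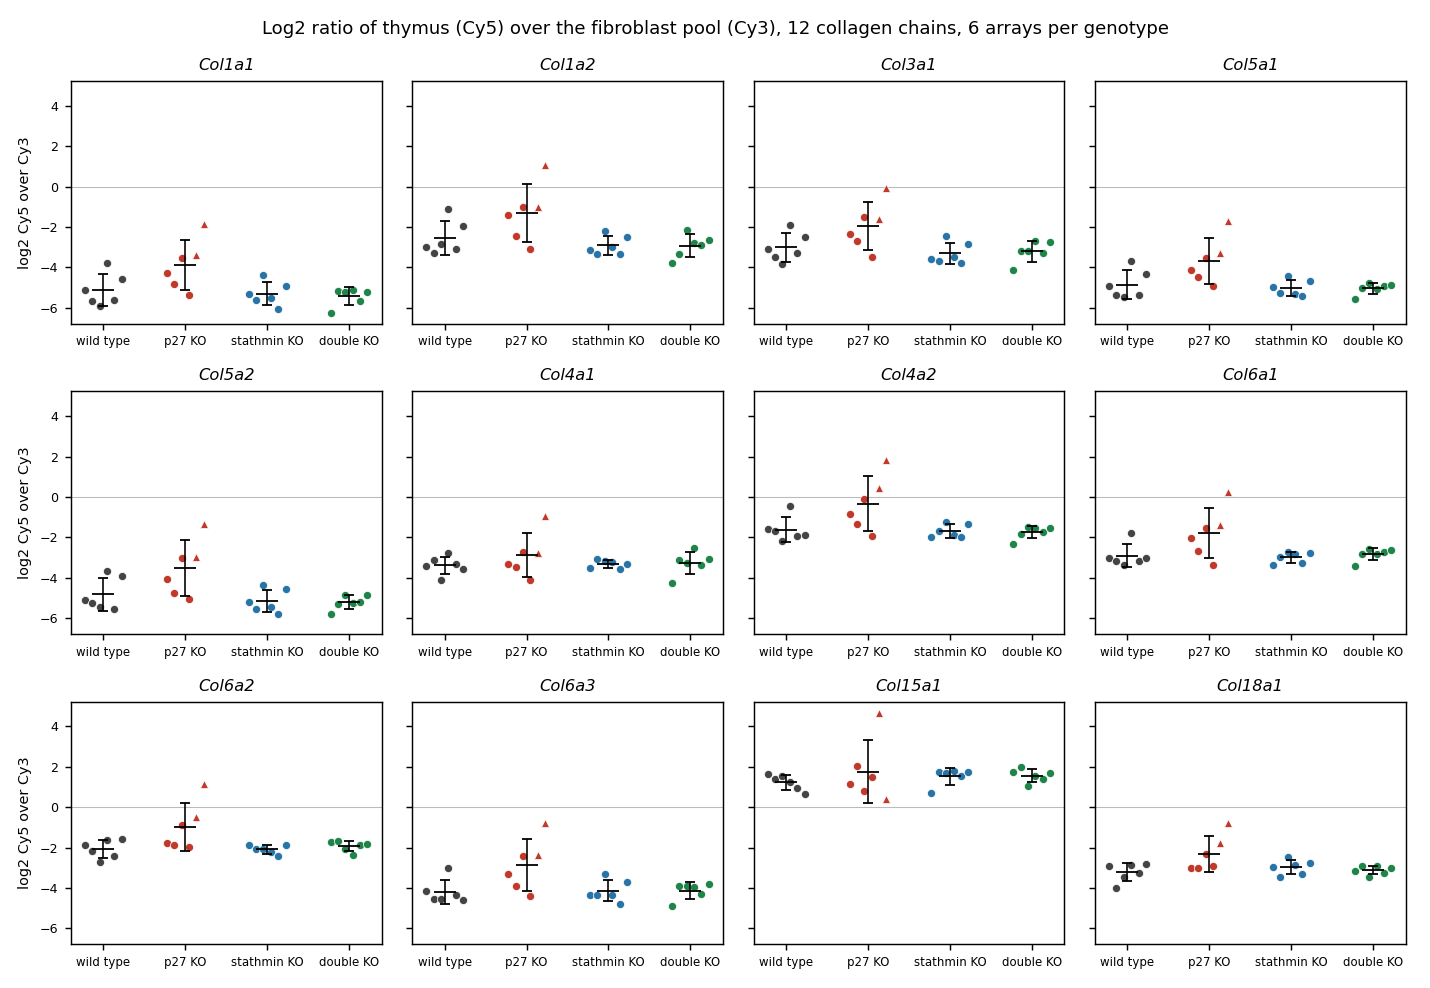
Log2 thymus over fibroblast ratio of 12 collagen chains on each of the 24 arrays, in genotype columns with replicates 1 to 6 from left to right, and mean with SD; triangles are p27 knockout replicates 5 and 6. The triangles lie at the top of the p27 knockout column for most fibrillar chains, and the double knockout points sit close together at its low end.

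To show what lies before the starts of chains that carry these results, the 250 bases before the annotated start, from RefSeq's table of GRCm38.p6, are given for a fibrillar pair, Col1a2 and Col3a1, and for the anchoring and short-chain collagens Col7a1 and Col8a1. They are the windows of these genes that lie outside every annotated gene.
Col1a2: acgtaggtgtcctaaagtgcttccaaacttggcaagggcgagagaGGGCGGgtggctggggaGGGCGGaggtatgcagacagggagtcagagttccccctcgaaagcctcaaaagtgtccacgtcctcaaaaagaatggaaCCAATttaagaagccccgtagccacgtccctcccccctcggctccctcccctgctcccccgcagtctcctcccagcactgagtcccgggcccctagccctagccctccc
Col3a1: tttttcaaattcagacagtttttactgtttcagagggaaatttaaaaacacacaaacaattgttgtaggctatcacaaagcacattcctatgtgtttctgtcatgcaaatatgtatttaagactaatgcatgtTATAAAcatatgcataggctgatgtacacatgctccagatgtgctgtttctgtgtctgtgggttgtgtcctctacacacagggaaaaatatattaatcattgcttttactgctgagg
Col7a1: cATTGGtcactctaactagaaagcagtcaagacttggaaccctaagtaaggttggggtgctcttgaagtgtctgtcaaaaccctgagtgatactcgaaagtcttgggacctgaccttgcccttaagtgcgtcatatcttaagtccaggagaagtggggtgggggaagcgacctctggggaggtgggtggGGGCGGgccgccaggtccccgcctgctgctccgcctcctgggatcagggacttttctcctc
Col8a1: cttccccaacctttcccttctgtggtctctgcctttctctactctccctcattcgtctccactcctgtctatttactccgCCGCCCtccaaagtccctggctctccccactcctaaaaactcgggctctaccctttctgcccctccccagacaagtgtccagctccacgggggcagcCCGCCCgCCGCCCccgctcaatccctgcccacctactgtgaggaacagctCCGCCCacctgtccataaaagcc
Capitals mark a TATAAA box, a CCAAT box or a GGGCGG box on either strand. The windows lie at chr6:4505368-4505617, chr1:45311288-45311537 and chr9:108953336-108953585 on the plus strand and at chr16:57754738-57754987 on the minus strand. The Col1a2 window held the CCAAT and the GGGCGG motif, that of Col3a1 the TATAAA motif, that of Col7a1 the CCAAT motif on the other strand and the GGGCGG motif, and that of Col8a1 the GGGCGG motif on the other strand only. A match is a description of these letters and not of a bound site. Of the 40 collagens, 32 were matched to 35 such windows. TATAAA was in 14.3% of collagen windows and 12.4% of all 32841, CCAAT in 34.3% and 33.9%, and GGGCGG in 54.3% and 32.75%.

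Basement membrane collagen IV gave a mixed picture, with 2 of 6 chains past the threshold as lower and a median change of -0.46. The share of all genes was 19.1%. Without p27 knockout replicates 5 and 6, only Col4a4 of these chains passed, where 10.4% of all genes passed as lower. Col4a1 and Col4a2 make the main network of all basement membranes. They lie head to head on chromosome 8 (Col4a1 at chr8:11198423-11312889 and Col4a2 at chr8:11312805-11449287) and overlap by 85 bases. Col4a1 read -4.14, -3.03 and -0.93 in p27 knockout and -4.25, -3.21 and -2.52 in double knockout. Its groups overlapped almost fully, and the change of -0.38 ± 0.37 did not pass, adjusted p 0.441. Col4a2 read -1.94, -0.47 and 1.84 against -2.32, -1.65 and -1.50 and changed by -1.42 ± 0.43, adjusted p 0.0192, while its second probe gave -0.48. Col4a4, a chain of the network of kidney and other specialised membranes, changed by -1.19 ± 0.29, adjusted p 0.00732, and by -0.68 ± 0.21 without p27 knockout replicates 5 and 6. The 3 probes of Col4a6 gave -0.29, -1.36 and 0.63.

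Collagen VI, whose 3 chains form beaded filaments beside basement membranes, had 1 chain past the threshold as lower, where 19.1% of all genes were. Col6a1 read -3.37, -1.79 and 0.26 in p27 knockout and -3.42, -2.76 and -2.59 in double knockout, a change of -1.03 ± 0.40 with an adjusted p of 0.0522. Col6a2 read -1.98, -1.32 and 1.13 against -2.36, -1.83 and -1.68, a change of -0.95 ± 0.37 with an adjusted p of 0.0545. Col6a3 read -4.37, -2.86 and -0.77 against -4.91, -3.95 and -3.79, and changed by -1.28 ± 0.43 with an adjusted p of 0.0319. All 3 overlapped between the groups.

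Of the 9 fibril-associated collagens, which bind the surface of fibrils, 2 were lower and 1 higher in double knockout, shares near the 19.1% and 9.7% of all genes. Col12a1 read -4.06, -3.45 and -0.42 in p27 knockout and -4.61, -4.46 and -4.34 in double knockout without overlap, a change of -1.52 ± 0.45 with an adjusted p of 0.0171. Col16a1 changed by -1.53 ± 0.42, adjusted p 0.0122. Col9a1, a cartilage chain, was the collagen that rose. It read -0.88, -0.46 and -0.25 in p27 knockout and -0.35, -0.12 and 0.31 in double knockout, a change of 0.47 ± 0.17 with an adjusted p of 0.0408. The difference was above 0 on 6 of the 6 slides, and the groups overlapped slightly. With the Cy5 channel alone, scaled to its 75th percentile, the same difference was -0.40.

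All 4 network and anchoring collagens passed as lower, where 19.1% of all genes did, with a median change of -1.62. Without p27 knockout replicates 5 and 6, only Col7a1 of them passed, where 10.4% of all genes passed as lower. Col7a1, which makes the anchoring fibrils under epithelia, read -3.39, -3.05 and -1.37 in wild type and -2.19, -1.30 and 0.79 in p27 knockout. It read -3.53, -3.08 and -1.91 in stathmin knockout and -3.88, -2.91 and -2.39 in double knockout. Every p27 knockout array lay above every double knockout array, and the change was -1.99 ± 0.47, 3.98-fold lower, adjusted p 0.00634. It passed also without p27 knockout replicates 5 and 6, at -1.29 ± 0.41 and an adjusted p of 0.0423. Col8a1, a short-chain collagen of vessel walls, read -5.30, -3.92 and -1.71 against -6.48, -5.59 and -5.32 without overlap, and changed by -1.80 ± 0.46, adjusted p 0.00944. Col10a1, known from cartilage that is turning into bone, read -2.28, -1.77 and 0.74 against -3.25, -2.92 and -2.32, a change of -1.43 ± 0.41 with an adjusted p of 0.0158. Col8a2, the partner of Col8a1, changed by -1.40, adjusted p 0.0241.

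Of the multiplexins, basement membrane collagens that release anti-angiogenic fragments, Col18a1 changed and Col15a1 did not pass. Of all genes 19.1% passed as lower. Col18a1 read -3.02, -2.62 and -0.80 in p27 knockout and -3.43, -3.09 and -2.92 in double knockout, a change of -0.82 ± 0.31 with an adjusted p of 0.0475, and of 0.0527 with the slide as a block. Col15a1 was brighter from thymus than from the fibroblast pool in every group. It read 0.64, 1.32 and 1.63 in wild type, 0.41, 1.32 and 4.69 in p27 knockout, 0.70, 1.72 and 1.81 in stathmin knockout and 1.05, 1.61 and 1.97 in double knockout. The value of 4.69 was p27 knockout replicate 5 alone. The double knockout minus p27 knockout difference was -0.20 ± 0.46, adjusted p 0.759, while its second probe rose by 0.70, adjusted p 0.0227.

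Of the 4 transmembrane collagens, Col25a1, known from nerve cells, passed as lower, where 19.1% of all genes did. It read -0.23, -0.07 and 1.05 in wild type, 0.24, 1.08 and 3.66 in p27 knockout, -0.33, -0.07 and 0.33 in stathmin knockout and -0.91, -0.19 and -0.04 in double knockout. The p27 knockout and double knockout did not overlap, and the change was -1.75 ± 0.41, adjusted p 0.00664. Without p27 knockout replicates 5 and 6 it was -1.03 ± 0.28, adjusted p 0.0279. Col23a1 had a change of 0.47 and Col13a1 of 0.10, and neither passed.

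Col17a1, the collagen of hemidesmosomes that holds surface epithelia to their basement membrane, was high on 4 single arrays spread over 3 genotypes. It read -0.82, -0.14 and 3.28 in wild type, -2.39, -0.12 and 0.59 in p27 knockout, -0.58, 0.11 and 3.74 in stathmin knockout and -0.65, -0.25 and 4.04 in double knockout. The high arrays were wild type replicate 5, stathmin knockout replicate 6 and double knockout replicates 2 (3.41) and 4. The double knockout minus p27 knockout difference was 1.49 ± 0.87, adjusted p 0.191. On those 4 arrays the median of 9 skeletal muscle markers was 5.06, 4.79, 5.25 and 5.20. The keratin Krt4 of stratified epithelia, chosen after its values were seen, was 6.31, 3.73, 4.07 and 4.01. Muscle markers were also high on stathmin knockout replicate 5, at 3.80, where Col17a1 was -0.58, and Krt4 on p27 knockout replicate 5, at 3.72, where Col17a1 was -1.06. The part of these tissues in the Col17a1 values was not tested.

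**Figure D3:**
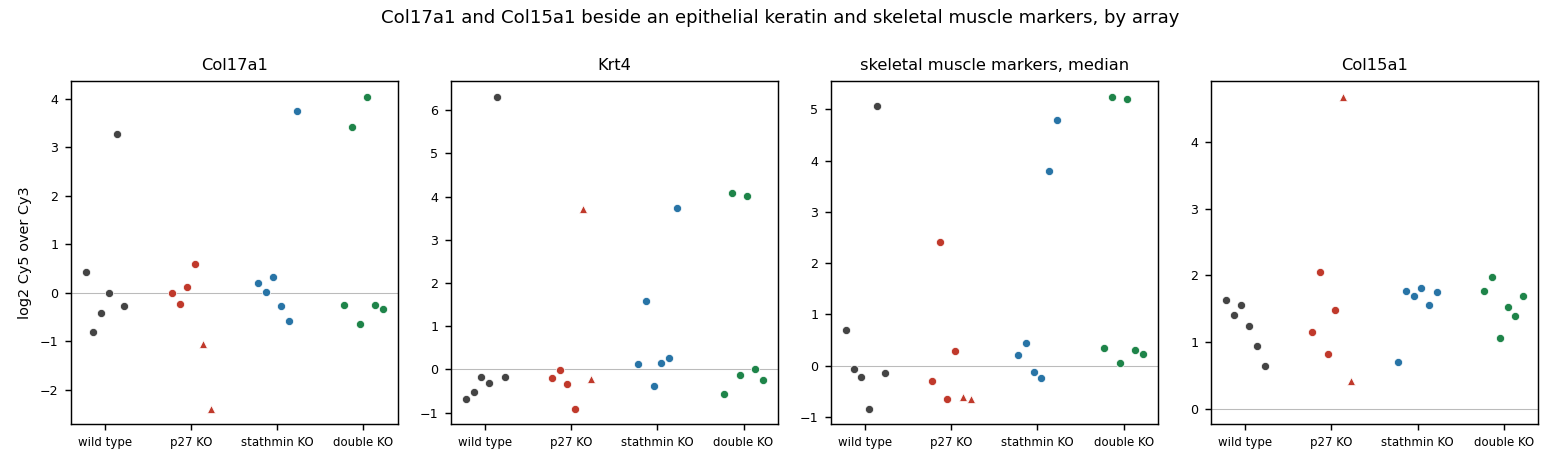
Log2 ratio of Col17a1, Krt4, the median of the skeletal muscle markers and Col15a1 on each of the 24 arrays, in genotype columns. The 4 arrays with Col17a1 between 3.28 and 4.04 also have high Krt4 and muscle values, while Col15a1 stands out on p27 knockout replicate 5 at 4.69.

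Probes of 1 gene mostly moved together. Of the 21 collagens with more than 1 probe tested, 16 had all probes on the same side of 0 in double knockout against p27 knockout. The exceptions were Col4a6, Col15a1, Col22a1, Col23a1 and Col27a1. Of the 11 collagens that passed and had more than 1 probe, all 11 had every probe below 0, and 6 had every probe past the threshold.

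The signal of the thymus channel on its own ran the other way from the ratios in part. Raw Cy5 signal of the collagens spanned a median of 4.17-fold over the 24 arrays, less than the 11.2-fold over all genes, while their Cy3 signal spanned 1.34-fold. For Col1a1, Cy5 ran from 10.7 to 29.1 in units of 1000, with group medians of 17.9 in wild type, 13.5 in p27 knockout, 19.8 in stathmin knockout and 20.6 in double knockout. For Col3a1 the medians were 54.5, 39.9, 61.7 and 72.6 in the same order, for Col4a1 12.8, 6.07, 19.2 and 20.6, and for Col6a1 12.3, 8.42, 14.8 and 18.9. Before any scaling, then, the p27 knockout had the lowest median of the 4 groups for these chains. In p27 knockout the median Cy5 signal was below wild type for 33 of the 40 collagens and for 73.6% of all genes. The median of the p27 knockout to wild type signal ratios was 0.769 for collagens and 0.559 for all genes. In double knockout the median Cy5 signal was below p27 knockout for 5 of 40 collagens and 24.3% of all genes, and the median signal ratio was 1.65 for collagens and 2.25 for all genes. Set against the rest of the array, the collagen signal of the p27 knockout was therefore higher, and without that scaling it was lower.

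**Figure D4:**
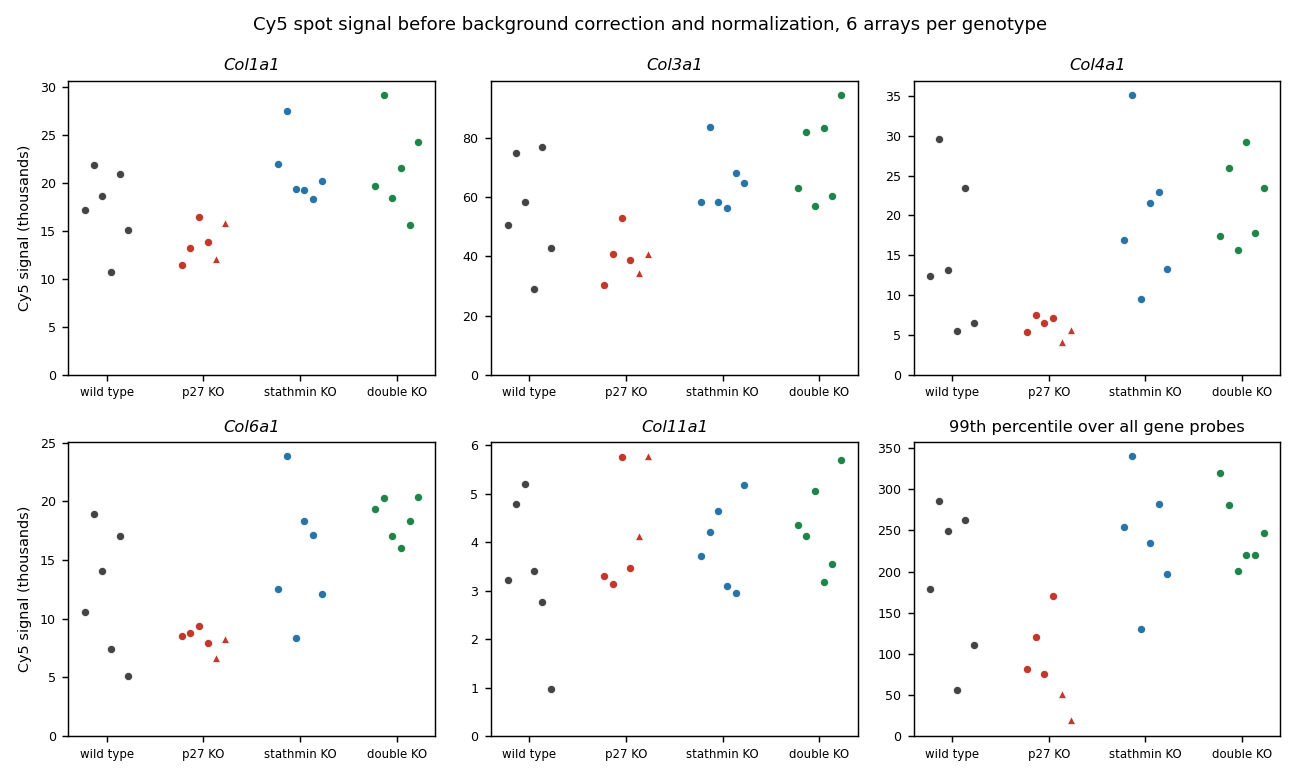
Raw Cy5 signal, in units of 1000, of 5 collagens and the 99th percentile of the whole array, for each of the 24 arrays in genotype columns. The Col1a1, Col3a1, Col4a1 and Col6a1 signals of p27 knockout arrays are low or level with the other groups. The highest Col11a1 signals are those of p27 knockout replicates 6 (5.77) and 3 (5.76). The 99th percentile falls to 19.4 on p27 knockout replicate 6.

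The collagen ratio followed array brightness. The 6 arrays with the lowest 99th percentile of Cy5, p27 knockout replicates 6, 5, 3 and 1 and wild type replicates 4 and 6, were the 6 with the highest collagen median. As a description over the 6 arrays of each genotype, Spearman's rho between the 2 was -1 in p27 knockout, -0.829 in wild type, -0.771 in stathmin knockout and 0.0857 in double knockout. On p27 knockout replicate 6, 26 of the 40 collagens had their highest ratio of all 24 arrays, where 28.4% of all genes did. The loss of calls without replicates 5 and 6 is given above. When brightness was entered as a covariate, no collagen passed in double knockout against p27 knockout, none of all genes did (0%), and the median collagen change was 0.12. Brightness did not overlap between p27 knockout (19.4 to 171) and double knockout (200 to 320). That covariate therefore cannot be told apart from genotype in this comparison, and the loss of calls decides nothing. Using the Cy5 channel alone after quantile normalisation, 17 collagens passed, 15 of them lower. The share of all genes that passed in that fit is not given here, so this count is not read as a result about collagens. The part of brightness and of lost thymocyte signal in the collagen differences was not tested beyond these values.

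**Figure D5:**
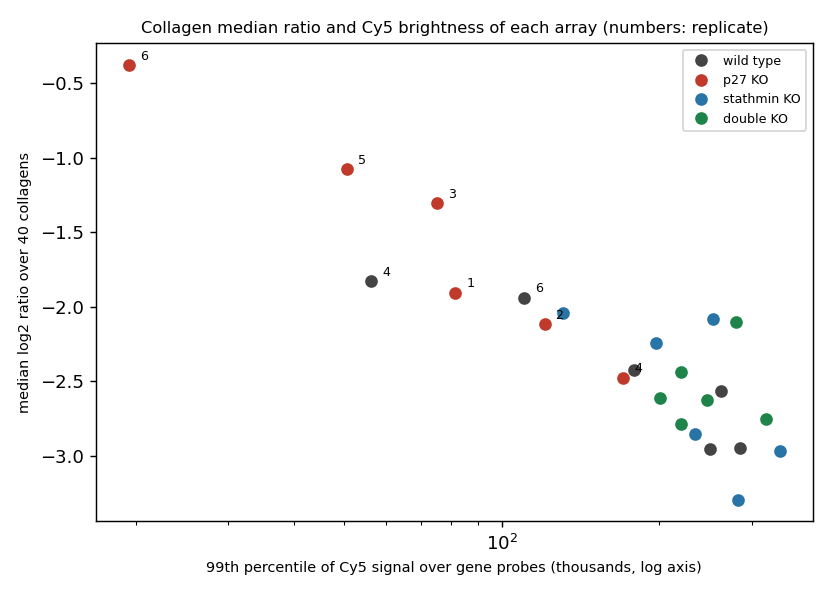
Median log2 ratio of the 40 collagens on each array against the 99th percentile of its Cy5 signal on a log axis; numbers are replicates. The 6 dimmest arrays, 4 of p27 knockout and 2 of wild type, carry the 6 highest collagen medians.

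Loss of p27 alone was compared with wild type. No collagen passed, beside 0.00807% of all genes. At an unadjusted p under 0.05 there were 22 collagens and 7160 of the 24784 genes. The count of calls hung on single arrays: it was 10, 11 and 18 collagens, all higher, without p27 knockout replicate 1, 2 or 4, where 10.2%, 6.6% and 11.3% of all genes passed, and 5 without wild type replicate 6, where 9.64% did. Array quality weights gave 7, beside 11.2% of all genes. The median collagen difference was 0.88, with 36 of 40 above 0, against 0.14 over all genes. Differences were 1.25 ± 0.45 for Col1a1, adjusted p 0.0937, 1.23 for Col1a2, adjusted p 0.119, 1.05 for Col3a1, adjusted p 0.12, and 1.96 ± 0.56 for Col11a1, adjusted p 0.0809. Col7a1 stood at 1.64 ± 0.47, adjusted p 0.0809, and was above 0 on 5 of 6 slides and level on the other. The lowest difference was that of Col17a1, -0.86 ± 0.87. Without p27 knockout replicates 5 and 6 the median collagen difference was 0.33 against 0.12 over all genes, with no call, beside 0.0161% of all genes, and with 4 collagens and 3297 of the 24784 genes at an unadjusted p under 0.05. Every collagen overlapped between the groups, where 0.42% of all genes stood wholly higher and 0.21% wholly lower. This comparison and that of double knockout against p27 knockout share the 6 p27 knockout arrays.

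Loss of stathmin alone, and the double knockout against wild type and against stathmin knockout, moved no collagen past the threshold. The shares of all genes called were 0%, 0.0121% and 0.00807%. At an unadjusted p under 0.05 there were 0, 1 and 1 collagens, and 682, 1173 and 317 of the 24784 genes. The median collagen differences were -0.09, -0.13 and -0.04, beside -0.02, -0.04 and -0.02 over all genes. In stathmin knockout against wild type the differences ran from -0.53 for Col24a1 to 0.51 for Col4a6, which did not pass. In double knockout against wild type Col24a1 stood lowest, at -0.96 ± 0.49, and Col9a1 had 0.46 ± 0.17, adjusted p 0.684. In double knockout against stathmin knockout Col9a1 had the highest difference, 0.45 ± 0.17, with an adjusted p of 1. The groups overlapped for every collagen in these 3 comparisons, where 0.133%, 0.674% and 0.0565% of all genes stood wholly higher and 0.0565%, 0.347% and 0.0646% wholly lower.

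The test of whether the effect of stathmin loss depends on p27, an interaction term, passed for no collagen and for 0% of genes. At an unadjusted p under 0.05 there were 15 collagens and 4417 of the 24784 genes. The median interaction over the collagens was -0.94 against -0.16 over all genes. It was lowest for Col11a1, -2.05 ± 0.79, adjusted p 0.264, and highest for Col17a1, 1.28.

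Genes that work on collagen were counted in double knockout against p27 knockout, from lists drawn up by textbook role. Each count stands against 19.1% of all genes lower and 9.7% higher in this comparison. Of 23 genes of collagen modification and folding, 9 fell and 3 rose, the latter a share near that of all genes, with a median of -0.44. Fkbp10, a folding helper of type I procollagen, read -4.04, -2.87 and -1.01 in p27 knockout and -4.86, -4.27 and -4.18 in double knockout, and fell by 1.59 ± 0.39, adjusted p 0.00763. P3h3, a prolyl hydroxylase of the family, fell by 1.46, and Crtap, which forms a complex that modifies collagen prolines, fell by 1.37. Tmem38b, a cation channel of the endoplasmic reticulum, rose by 1.11, Mia3, which helps export procollagen, rose by 0.75, and P4ha3, a prolyl hydroxylase subunit, rose by 0.81. Of 17 genes of processing and cross-linking, 9 fell and 1 rose, with a median of -1.19. Loxl3, a lysyl oxidase that links fibrils, read -3.10, -2.61 and 0.28 against -4.49, -4.33 and -4.21 without overlap, and fell by 2.29 ± 0.50, adjusted p 0.00454. Loxl2, of the same family, fell by 2.17, and Tll1, a protease that trims procollagen, fell by 1.57. Tnxb, a tenascin that binds fibrils, read -0.97, 0.27 and 0.84 against 1.01, 1.81 and 2.81 without overlap and rose by 1.72 ± 0.49, adjusted p 0.0157.

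Of 13 genes of collagen breakdown, 7 fell and 1 rose, with a median of -1.03. Mmp13, a collagenase, fell by 1.88 ± 0.44, adjusted p 0.0066, Mrc2, a collagen uptake receptor, fell by 1.46, and Timp1, an inhibitor of such proteases, fell by 1.34. Mmp9, a gelatinase, read -1.19, -0.68 and 0.06 in p27 knockout and -0.22, 0.35 and 1.08 in double knockout, and rose by 0.95 ± 0.23, adjusted p 0.00788. Of 9 collagen receptors tested, 2 fell and none rose, shares near those of all genes or below, with a median of 0.18: the integrin Itga11, by 1.68, with 1 p27 knockout array missing after spots with outlier marks were left out, and the receptor kinase Ddr2, by 1.33. Of 10 partners of collagen in basement membranes 2 fell, again near the share of all genes, the laminin chain Lamc1 by 1.17 and the proteoglycan Agrn by 0.91, and the median was -0.49. None of these list members passed in p27 knockout against wild type, where the list medians were 0.55, 1.18, 0.91, 0.13 and 0.73 in the order given here.

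Markers of other cell types were counted in the same comparison, again against 19.1% of all genes lower and 9.7% higher. Of the list of fibroblast and mesenchyme markers 6 of 13 fell and none rose, with a median of -0.49. The list was Pdgfra, Pdgfrb, Dcn, Lum, Fn1, Postn, Fbn1, Thy1, S100a4, Vim, Fbln2, Mfap5 and Dpt. Some of these, such as Thy1, S100a4 and Vim, are not particular to fibroblasts. The median of that list was -2.99 ± 0.32 (SD, n = 6) in wild type, -2.08 ± 0.80 in p27 knockout, -2.95 ± 0.33 in stathmin knockout and -2.98 ± 0.25 in double knockout, and all 13 were above background on every array. Of smooth muscle markers 2 of 8 rose and 2 fell, of endothelium 3 of 10 rose, of adipocytes 5 of 11 rose, of cartilage 1 of 5 rose and 1 fell, of thymic epithelium 2 of 10 rose, of skeletal muscle 1 of 9 rose, and no thymocyte marker of 10 passed. Their part in the collagen values was not tested.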

How the data were processed

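Thymus RNA (Cy5) was hybridised with a fibroblast RNA pool (Cy3) on 24 two-colour Agilent arrays. Intensity values of both channels and their log10 ratios were deposited as scanner output, which the file headers credit to Agilent Feature Extraction 9.1.3.1. The deposited log2 table follows spot brightness rather than the ratio, and its centring and making are unknown here.

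From the intensities, background was corrected with limma 3.58.1 (normexp, offset 50), arrays were loess-normalised with control spots at weight 0, spots with outlier marks were left out and spots of a probe averaged. Probes with Cy5 well above background on at least 6 of 24 arrays were kept, and the brightest probe stood for a gene. lmFit and eBayes in R 4.3.3 were fitted over genotype, with Benjamini-Hochberg adjustment at 0.05 over all genes. The number of arrays limits the precision. In simulated data for double knockout against p27 knockout over 24784 genes, 39% of genes changed by 1 on the log2 scale and 81% of those changed by 2 were recovered. The simulation gave each gene 1 spread for all genotypes and drew every value on its own. In the data the p27 knockout spread wider, as for Col11a1 (SD 1.55 against 0.45 in double knockout). The rates therefore need not hold for this comparison.

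Replicates were separate mice, per the labels, and replicate numbers did not pair them. Of all probes, 22951 were named through a gene table of GRCm38.p6 and 18223 kept the file's name. Named were the 10 largest changes among collagens past the threshold, the 3 highest and 3 lowest in each comparison, and 12 main chains; of each pathway list, up to 3 members past the threshold in each direction. Col4a4, Col8a2, Col12a1, Col16a1 and the probes of Col4a6 were named after their values were seen. The members and lists were chosen with earlier results of these data known.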

Additional observations from a re-analysis of the deposited data

Results flagged for a closer look

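Sets of 6 arrays were tested for a single value far from the rest, 112 of the 28 named collagens by genotype and 4 of the collagen median. Of these 116 sets 16 had one, where chance gives about 1 in 20, or 5.8, for independent sets. Collagens measured on the same arrays are not independent, so 16 cannot be weighed against 5.8. Wild type replicate 4, a dim array, accounted for 6 of the 16. It stood above the other wild type arrays for Col11a1 at -3.41, Col4a2 at -0.449, Col6a1 at -1.77 and Col6a3 at -3.02, and below them for Col9a1 at -1.01 and Col23a1 at -1.88. Double knockout replicate 1, the brightest array of its genotype, accounted for 4, all low. Its values were -4.25 for Col2a1, -5.54 for Col5a1, -3.42 for Col6a1 and -6.48 for Col8a1.

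On p27 knockout replicate 5, Col10a1 at 0.741 and Col9a3, a cartilage chain, at 3.00 stood above the other p27 knockout arrays. Col17a1 stood apart on wild type replicate 5 at 3.28 and on stathmin knockout replicate 6 at 3.74. Col15a1 was low on stathmin knockout replicate 1, at 0.701, and Col9a3 high on wild type replicate 2, at 0.999.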

How the results depend on the processing

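Dim p27 knockout arrays, the number of arrays and saturated Cy3 spots limit these results. Collagen calls in double knockout against p27 knockout, 21 in the reported fit, were 17 to 27 without background correction, with Agilent's log ratios, with Cy5 alone under either scaling, with another dim-probe filter, with array weights, with the slide as a block and with every probe tested.

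They were 0 with brightness as a covariate, 4 without p27 knockout replicates 5 and 6, and 6 after scaling between arrays. These 2 genotypes alone gave 8. The deposited table, which follows spot brightness and not the ratio, gave 11, all higher, where 52% of genes passed. With 1 replicate left out the collagen calls were 16 to 26. The share of all genes passing moved with the setting too, from 28.8% in the reported fit to 14.3% without p27 knockout replicates 5 and 6. For most other settings that share is not given here, so these counts are not read as results about collagens. The median change of -0.99 was 0.12 with the covariate, 0.34 in the deposited table and -1.24 to -0.79 with 1 replicate left out. Chosen after seeing the data, Cy5 alone without p27 knockout replicates 5 and 6 gave 5 calls and a median of -0.25.

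In p27 knockout against wild type, 0 calls became 1 in the deposited table, 7 with array weights, 6 with slide and weights (chosen after seeing the data), and 0 to 18 with 1 replicate left out: 10, 11 and 18 when p27 knockout replicate 1, 2 or 4 was dropped, and 5 when wild type replicate 6 was. Its median of 0.88 was -0.22, 0.18, 0.33 and 0.27 in the deposited table, with the covariate, without p27 knockout replicates 5 and 6, and with Cy5 alone without them, and 0.67 to 1.05 with 1 left out. The interaction median of -0.94 was 0.20 in the deposited table, -0.39 with weights, -0.16 with the covariate, -0.30 with Cy5 alone without those arrays, and -1.11 to -0.68 with 1 left out. Medians with 1 left out were -0.17 to 0.06 for stathmin knockout against wild type, -0.21 to -0.0083 for double knockout against wild type and -0.12 to 0.06 for double against stathmin knockout, with 0 calls.

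Double knockout minus p27 knockout turned positive in the deposited table for Col1a1 (0.34), Col1a2 (0.17), Col3a1 (0.45), Col5a1 (0.40), Col5a2 (0.24), Col5a3 (0.41), Col2a1 (0.24), Col11a1 (0.0042), Col24a1 (0.064), Col4a1 (0.91), Col4a2 (0.33), Col6a1 (0.59), Col6a2 (0.56), Col6a3 (0.46), Col7a1 (0.12), Col8a1 (0.14) and Col18a1 (0.66). With the covariate it was 0.28 for Col1a1, 0.44 for Col1a2, 0.43 for Col3a1, 0.24 for Col5a1, 0.23 for Col5a2, 0.20 for Col5a3, 0.092 for Col2a1, 0.0096 for Col11a1, 0.20 for Col4a2, 0.34 for Col6a3, 0.081 for Col8a1 and 0.23 for Col18a1. Col9a1 was -0.40 with Cy5 alone at the 75th percentile. The deposited values correlated at 0.9999 or more with the mean log2 of both channels. With the log ratio they correlated at 0.067 or less. They thus measure spot brightness, and their signs are no check on the sign of the ratio. Cy5 brightness did not overlap between p27 knockout and double knockout, so the covariate cannot be told apart from genotype here. The cause of the sign changes in the other settings was not tested.

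Same-numbered arrays deviated with a mean correlation of 0.03, so the numbers do not pair them. The replicate block gave 21 calls, all lower, in double knockout against p27 knockout. Arrays of the same slide had a mean correlation of 0.12, against -0.02 for arrays that shared neither slide nor number. The reported fit did not include the slide.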
